A study of Homo sapiens with 4 samples.

Results

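Transcripts of respiratory complexes II to V and of cytochrome c were followed in HT1080 cells, a human fibrosarcoma line, kept in hypoxia (1% oxygen) or under control conditions (21% oxygen, atmospheric) for 36 h. Members were the genes whose symbol is SDHA to SDHD, CYC1 or CYCS or begins with UQCR, COX4 to COX8 or ATP5, taken from probe sets that name exactly 1 gene. This gave 49 of 18417 genes: 3 of complex II, 9 of complex III, 1 for cytochrome c, 17 of complex IV and 19 of complex V. Each gene was read from 1 probe set, the one with the highest mean over the 4 arrays where a gene had several, as 4 genes did. Of the 49 genes, 47 code for protein, and UQCRBP1 and ATP5F1EP2 are pseudogenes, whose probe sets may also bind transcripts of their parent genes. The probe sets used for SDHC, SDHD and ATP5MK may in turn not lie at the gene itself, which was not tested. SDHB, UQCRFS1, ATP5F1E and the subunits encoded in the mitochondrial genome were not analysed here.

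All cells were held in low-serum medium before and during the incubation. Total RNA and ER-RNA, extracted from a fraction made with a commercial endoplasmic reticulum isolation kit, were each hybridised for hypoxia and for control, and per the methods cells for subcellular fractions were treated with cycloheximide beforehand. Each of the 4 Affymetrix Human Gene ST arrays carried RNA pooled from 5 experiments of the same cell line. There is thus 1 array per group, the spread between experiments cannot be measured, the number of arrays limits the precision, and no p-value is given.

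The inner mitochondrial membrane carries an electron transport chain. Complex II (succinate dehydrogenase) passes electrons from succinate to ubiquinone, complex III passes them on to cytochrome c, and complex IV (cytochrome c oxidase) hands them to oxygen. The proton gradient that complexes I, III and IV build drives complex V, the ATP synthase. Hypoxia is known in several cell types to lower the use of this chain, and an exchange of the COX4 isoforms of complex IV has been described as a response to low oxygen.

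Values are log2 RMA values, normalised by the authors, and each change is the log2 value in hypoxia minus that under control conditions. A gene passed the expression filter of a fraction where at least 1 of the 2 arrays put it above that array's median. Calls needed a fold above 1.4 together with a z-score above 3, the z-score being the log2 difference over an SD read from a curve of SD on mean level. The array medians were 7.49 in hypoxia and 7.41 under control conditions in total RNA, against 6.34 in hypoxia and 6.25 under control conditions in ER-RNA, so the fractions were not set on 1 scale. The known hypoxia-induced genes EGLN3, PDK1, BNIP3 and NDRG1 were called up in both fractions, with log2 fold changes of 1.37 to 1.92 for total RNA and 1.06 to 1.72 for ER-RNA, while LDHA changed by 0.32 and 0.11 without a call. Of 6 mesenchymal markers 4 passed the filter in total RNA and 5 in ER-RNA, with VIM, FN1 and CD44 far above the array medians and THY1 below the filter in both. Of 5 epithelial markers KRT19 and CDX2 passed in both fractions, but EPCAM, CDH1 and KRT20 did not. Of 3 hepatocyte markers APOA1 passed in both and ALB and TTR in neither, and of 4 blood cell markers only CD14 passed, in ER-RNA. Of 5 muscle markers ACTA1 alone passed. The arrays weigh each RNA against the rest of the RNA, so that fewer cells of a type and less RNA per cell cannot be told apart.

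No member was called up in either fraction. In total RNA 40 of the 49 genes passed the filter and 3 of these were called down, ATP5MC1, ATP5F1B and CYC1. Of all 11530 genes that passed there, 2.32% were called up and 7.45% called down, so the count of members called down was at the background share. In ER-RNA 43 members passed and 6 were called down, the same 3 genes with COX7B, ATP5F1C and SDHD. With the dimmest probe set of each gene 5 were called down there, without SDHD. The background there was 1.12% called up and 8.25% called down of 11876 genes. An SD taken from the scaled median absolute deviation (MAD) of the log2 ratios was also tried. With it 1 of the 40 members was called down in total RNA and 2 of the 43 in ER-RNA, against 1.81% and 2.02% of all genes. With the fold of 1.4 alone 17 of the 40 and 20 of the 43 members were past the threshold downwards. These are larger shares than the 18.6% and 21.4% of all genes. Some members passed through 1 array alone: COX7B and ATP5PB in total RNA and ATP5MC3 in ER-RNA through the control array, and COX4I2 in total RNA through the hypoxia array.

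Small differences in the same direction were spread over most of the genes. In total RNA 38 of 49 members (77.6%) had lower values in hypoxia, and 37 to 41 under the other scalings tried. In ER-RNA 42 of 49 (85.7%) had lower values, and 39 to 43 under those scalings. Of all genes that passed the filter, 55.7% in total RNA and 52.5% in ER-RNA were lower in hypoxia. The median log2 fold change of the members was −0.30 for total RNA and −0.37 for ER-RNA, beside −0.06 and −0.04 over all genes that passed. The member values take in genes below the filter. Among members that passed it the medians were −0.41 and −0.46, and 90% and 88.4% were lower in hypoxia. In both fractions 36 members were lower in hypoxia, 5 were higher in both and 8 had opposite signs. Genes of 1 array pair are not independent replicates, and these counts describe the 4 pooled arrays.

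The members are bright on these arrays, and bright genes in general lay lower in hypoxia. Above the 75% quantile of mean signal among genes that passed, the median over all genes was −0.15 for total RNA and −0.22 for ER-RNA, with 7.04% and 9.60% called down. Above it stood 24 members in total RNA, with a median of −0.51 and 3 called down, and 34 members in ER-RNA, with a median of −0.48 and 5 called down. The part of signal level in the members' median was not tested further.

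**Figure D1:**
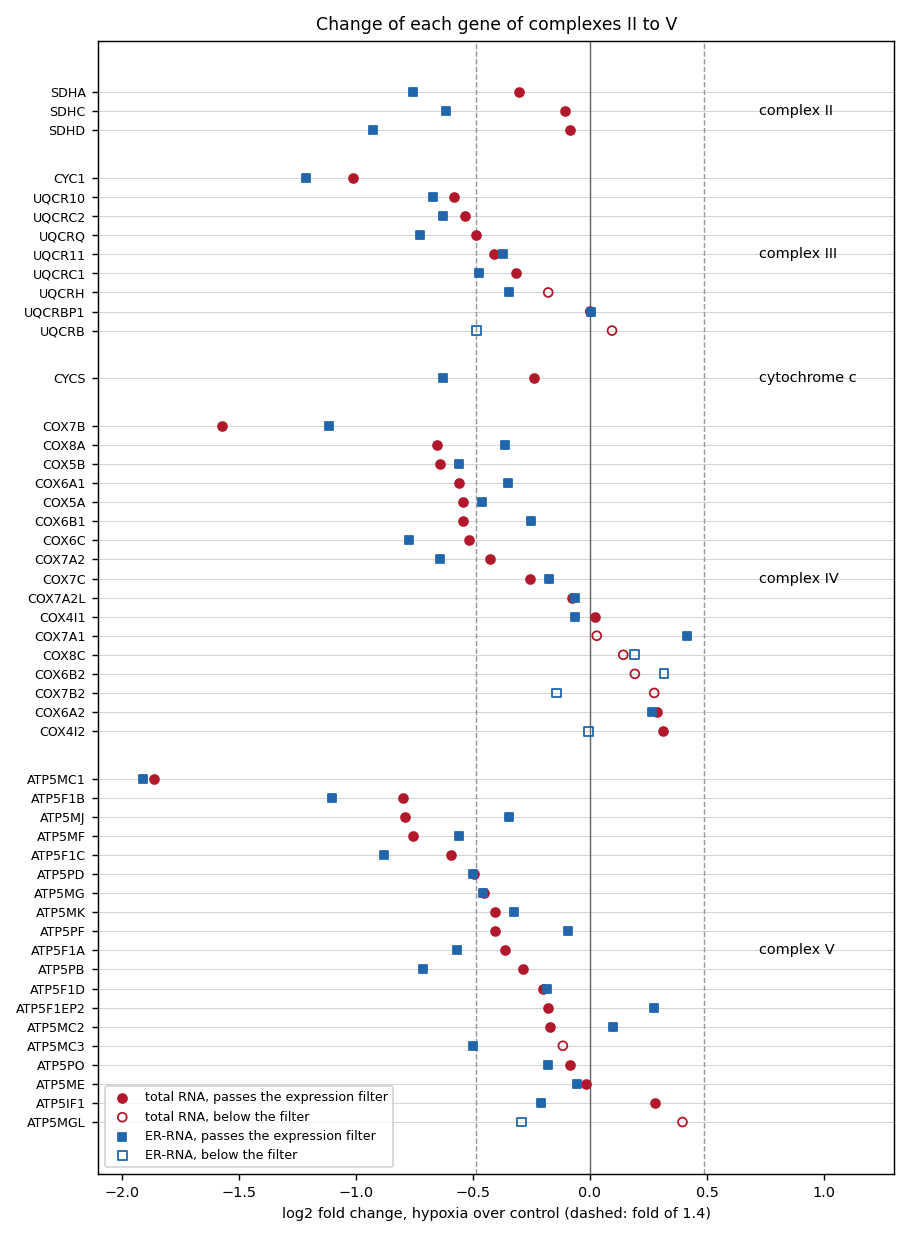
Log2 fold change (hypoxia over control, x axis) of each of the 49 genes (rows, by complex) for total RNA (circles) and for ER-RNA (squares), with open symbols for values below the expression filter and dashed lines at a fold of 1.4. Most symbols lie left of 0, ATP5MC1 lies farthest left at −1.86 and −1.91, and no symbol lies right of the upper dashed line.

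Complex V gave the widest range of changes. ATP5MC1 codes for subunit c, the proton-carrying subunit of the membrane ring, and had the lowest log2 fold change of all members in both fractions. In total RNA its value was 10.67 in hypoxia and 12.53 under control conditions, a log2 fold change of −1.86 (3.63-fold lower, z = −7.50). In ER-RNA the values were 11.07 in hypoxia and 12.98 under control conditions, a log2 fold change of −1.91 (3.76-fold lower, z = −8.20). In each fraction the hypoxia value thus lay well below its control value, and the call held under every alternative processing tried.

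Subunit c is encoded by 3 nuclear genes, ATP5MC1, ATP5MC2 and ATP5MC3, which give the same mature protein and differ in their import sequences. Neither of the others was called. ATP5MC2 had 9.76 in hypoxia and 9.93 under control conditions in total RNA, and 9.86 and 9.76 in ER-RNA, log2 fold changes of −0.17 and 0.10. ATP5MC3 had 7.16 and 7.28 in total RNA, where it did not pass the filter, and 6.18 and 6.68 in ER-RNA, where only the control value was above the array median. Its log2 fold changes were −0.12 and −0.50, the second just past a fold of 1.4. Its values lay close to the array medians, and how well a fall shows there was not tested. The change of ATP5MC1 minus that of ATP5MC2 was −1.69 for total RNA and −2.01 for ER-RNA. This is a difference between changes, since levels of different probe sets cannot be compared.

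The promoter stretches of ATP5MC1 and ATP5MC2 are shown because the gene called down and its quiet partner encode the same subunit. Both hold the letters ACGTG, a core of the sites that hypoxia-inducible factors bind, searched on both strands. The stretch of ATP5MC1 is chr17:48892779-48892808, plus strand, and that of ATP5MC2 is chr12:53676304-53676333, minus strand, both in GRCh38.p14 from RefSeq and written on the gene's own strand. Capitals mark the match, which in ATP5MC1 lies on both strands.
ATP5MC1: gaaggtccaggaCACGTGggtgggggaagc
ATP5MC2: accgcagtcCACGTtacggatcggcttact
A match of letters is a description and not a binding site.

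The F1 head of complex V, where ATP is made, had a median log2 fold change of −0.36 for total RNA and −0.57 for ER-RNA. This was taken over 5 genes, with the pseudogene ATP5F1EP2 counted among them. ATP5F1B, the catalytic beta subunit, fell in both fractions. It had 11.79 in hypoxia and 12.59 under control conditions in total RNA, a log2 fold change of −0.80 (1.74-fold lower, z = −3.69). In ER-RNA it had 11.47 in hypoxia and 12.58 under control conditions, a log2 fold change of −1.10 (2.15-fold lower, z = −4.73). ATP5F1C, the gamma subunit of the rotating stalk, had 10.89 in hypoxia and 11.48 under control conditions in total RNA, a log2 fold change of −0.59 without a call. In ER-RNA it had 11.00 in hypoxia and 11.88 under control conditions and fell by 0.88 on the log2 scale (z = −3.25), a call that was lost with quantile normalisation or loess within the pair. ATP5F1A, the alpha subunit that alternates with beta in the head, had log2 fold changes of −0.36 and −0.57 and was not called.

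The rest of complex V held no call. The 6 membrane genes had medians of −0.43 for total RNA and −0.33 for ER-RNA, with ATP5MJ at −0.79 and −0.35 and ATP5MF at −0.76 and −0.56. The peripheral stalk, which keeps the head from turning with the rotor, had medians of −0.35 and −0.34 over 4 genes. ATP5IF1, the inhibitor that blocks the reverse reaction of the enzyme, had 7.70 in hypoxia and 7.43 under control conditions in total RNA and 7.58 and 7.78 in ER-RNA, log2 fold changes of 0.28 and −0.21. The highest change of the complex in total RNA was that of ATP5MGL, a gene like the membrane subunit gene ATP5MG, with 6.78 in hypoxia and 6.39 under control conditions. It did not pass the filter in either fraction, and in ER-RNA it had 5.28 and 5.57. In ER-RNA the pseudogene ATP5F1EP2 was highest, with 11.14 in hypoxia and 10.87 under control conditions, against 9.72 and 9.90 in total RNA. Over all 19 genes of complex V the median was −0.36 for total RNA and −0.35 for ER-RNA.

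**Figure D2:**
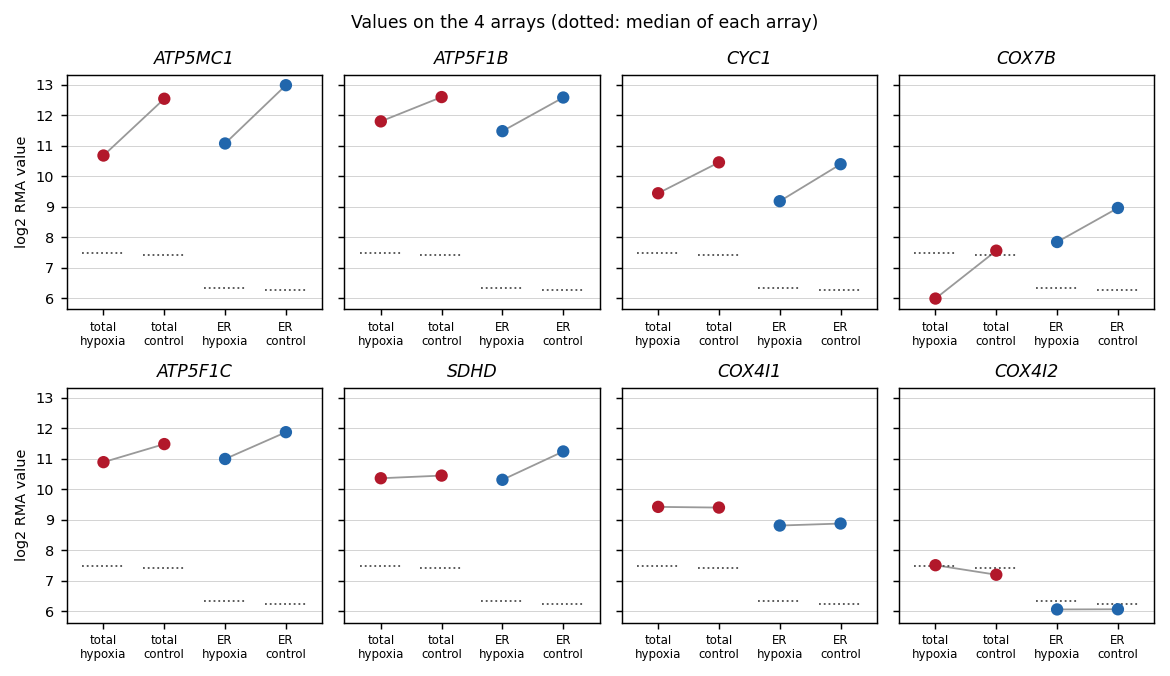
Log2 RMA values (y axis) on the 4 arrays (x axis) for the 6 genes called down in at least 1 fraction and for COX4I1 and COX4I2, with dotted marks at the median of each array. ATP5MC1, ATP5F1B and CYC1 are lower in hypoxia in both pairs, COX4I1 is nearly level, and COX4I2 lies close to the array medians.

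Complex III had medians of −0.41 for total RNA and −0.49 for ER-RNA over 9 genes. CYC1, the cytochrome c1 subunit that passes electrons to cytochrome c, was the 1 gene of the complex that was called. Its call was lost in both fractions with the SD from the scaled MAD, as were those of ATP5F1B in total RNA and of COX7B, ATP5F1C and SDHD in ER-RNA. It had 9.44 in hypoxia and 10.45 under control conditions in total RNA, a log2 fold change of −1.01 (2.02-fold lower, z = −3.59). In ER-RNA it had 9.18 in hypoxia and 10.39 under control conditions, a log2 fold change of −1.21 (2.32-fold lower, z = −3.75). The core proteins UQCRC1 and UQCRC2 had log2 fold changes of −0.31 and −0.53 in total RNA and −0.47 and −0.63 in ER-RNA. Of the smaller subunits that passed the filter, UQCR10, UQCR11 and UQCRQ lay between −0.58 and −0.41 in total RNA, and with UQCRH, which passed in ER-RNA alone, between −0.72 and −0.35 in ER-RNA. The highest in total RNA was UQCRB, below the filter in both fractions, with 6.90 in hypoxia and 6.80 under control conditions, against 4.72 and 5.21 in ER-RNA. The pseudogene UQCRBP1 was the highest in ER-RNA, with 6.88 in hypoxia and 6.87 under control conditions, and had 7.08 and 7.08 in total RNA.

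CYCS codes for cytochrome c, the carrier between complexes III and IV, and was not called. It had 8.03 in hypoxia and 8.27 under control conditions in total RNA and 8.27 and 8.90 in ER-RNA, log2 fold changes of −0.24 and −0.63.

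Complex II differed most between the fractions in its median, which was −0.11 for total RNA and −0.76 for ER-RNA over 3 genes. The total RNA value moved to −0.03 with quantile normalisation or loess within the pair. SDHA, the flavoprotein that oxidises succinate, had 10.80 in hypoxia and 11.10 under control conditions in total RNA and 8.92 and 9.67 in ER-RNA, and was not called. SDHC, a membrane anchor, had 11.69 and 11.80 in total RNA and 11.53 and 12.14 in ER-RNA, also without a call. Its other, dimmer probe set changed by −0.16 in total RNA and −0.56 in ER-RNA, again without a call. The 2 probe sets are numbered among those of different chromosomes, and whether the one used reads SDHC itself was not tested. SDHD, the other membrane anchor, had 10.37 in hypoxia and 10.45 under control conditions in total RNA, a log2 fold change of −0.09 whose sign turned under those scalings. In ER-RNA it had 10.31 in hypoxia and 11.24 under control conditions and fell by 0.93 on the log2 scale (1.90-fold lower, z = −3.08). That call rested on 1 of its 2 probe sets, since the other changed by −0.76 (z = −2.36), and it too was lost under those scalings. The probe set used is numbered among those of genes on chromosome 1, while SDHD lies on chromosome 11. Whether that probe set reads SDHD itself was not tested.

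Complex IV holds ubiquitous subunits and tissue-type isoforms. Its 17 genes had medians of −0.25 for total RNA and −0.18 for ER-RNA, whereas the 11 ubiquitous genes among them had −0.54 and −0.36. The other 6, COX4I2, COX6A2, COX6B2, COX7A1, COX7B2 and COX8C, are tissue-type isoforms known from lung, heart and skeletal muscle or testis. Their medians were 0.23 in both fractions, with 0 of 6 lower in hypoxia in total RNA and 2 of 6 in ER-RNA, although COX7A1 turned negative in total RNA under each other scaling. Only 2 of the 6 passed the filter in each fraction, COX4I2 and COX6A2 in total RNA and COX6A2 and COX7A1 in ER-RNA. Most of these values thus lie below the array medians, and how well a fall shows there was not tested. None of them was called, and their medians do not show that they behaved otherwise than the ubiquitous genes.

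COX4I1 and COX4I2 are the isoforms of the subunit through which complex IV senses ATP, COX4I1 in most tissues and COX4I2 mainly in lung. COX4I1 had 9.43 in hypoxia and 9.40 under control conditions in total RNA, and 8.82 and 8.88 in ER-RNA. Its log2 fold changes of 0.02 and −0.07 changed sign with the scaling, so no direction is given. COX4I2 had 7.52 in hypoxia and 7.20 under control conditions in total RNA, a log2 fold change of 0.31 (z = 1.02) without a call, and only the hypoxia value was above its array median. In ER-RNA it had 6.07 in hypoxia and 6.07 under control conditions, below the filter on both arrays. The change of COX4I2 minus that of COX4I1 was 0.29 in total RNA, a ratio of 1.22, and 0.09 to 0.29 over the alternatives. In ER-RNA it was 0.06, and between −0.21 and 0.06 over the alternatives, so its sign was not settled. An exchange of these isoforms was thus not detectable on these arrays.

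**Figure D3:**
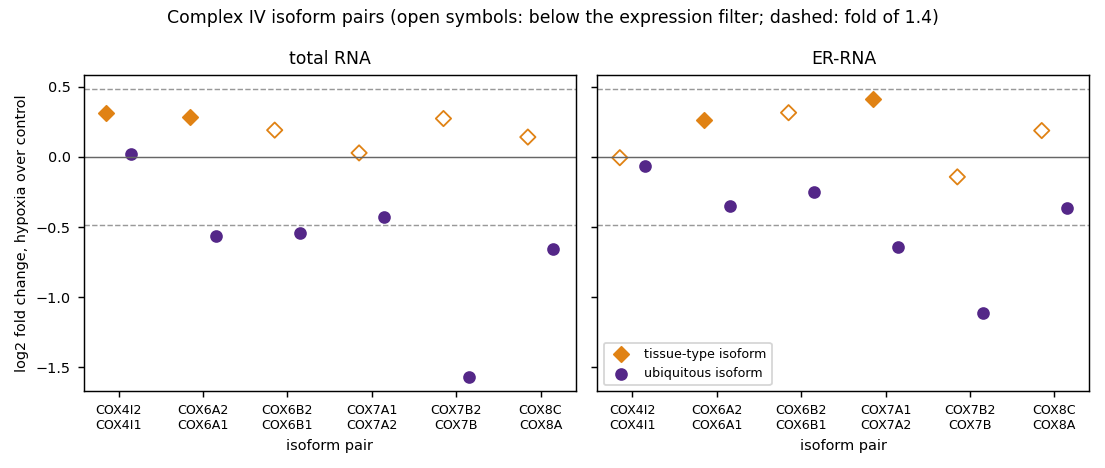
Log2 fold change (hypoxia over control, y axis) of the 6 tissue-type isoforms of complex IV (diamonds) and their ubiquitous counterparts (circles) in total RNA (left) and ER-RNA (right), with open symbols below the expression filter and dashed lines at a fold of 1.4. The open symbols are diamonds that lie between the dashed lines, and no diamond lies above the upper dashed line.

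Beside the COX4 pair in total RNA, both isoforms passed the filter for COX6A2 and COX6A1 in both fractions and for COX7A1 and COX7A2 in ER-RNA. COX6A2, the heart and muscle isoform, had 8.55 in hypoxia and 8.26 under control conditions in total RNA and 7.62 and 7.36 in ER-RNA. COX6A1 had 11.64 in hypoxia and 12.20 under control conditions in total RNA and 12.27 and 12.62 in ER-RNA. The change of COX6A2 minus that of COX6A1 was 0.85 for total RNA and 0.61 for ER-RNA, and that of COX7A1 minus COX7A2 was 1.05 for ER-RNA. None of these 4 genes was called, and the other pairs were not compared because the tissue-type gene was below the filter. COX7B, a small accessory subunit, had 5.99 in hypoxia and 7.56 under control conditions in total RNA. Its log2 fold change there, −1.57, came with a z-score of −2.99, just short of the threshold, and was called when the arrays were centred on their medians, fitted by loess within the pair or left unfiltered. In ER-RNA COX7B had 7.84 in hypoxia and 8.95 under control conditions and fell by 1.12 on the log2 scale (2.17-fold lower, z = −3.63). COX7A1, another heart and muscle isoform and the gene with the highest change of complex IV in ER-RNA, had 6.95 in hypoxia and 6.53 under control conditions there, and 6.95 and 6.92 in total RNA. The remaining ubiquitous genes ranged from −0.65 (COX8A) to 0.02 (COX4I1) in total RNA and from −0.77 (COX6C) to −0.06 (COX7A2L) in ER-RNA. COX5A and COX5B, subunits on the matrix side, had log2 fold changes of −0.54 and −0.64 in total RNA and −0.46 and −0.56 in ER-RNA.

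Nuclear genes of the respiratory chain are known to be driven by nuclear respiratory factor 1 and by ETS-family factors such as GABP. Of the 49 members, 36 had a promoter stretch in the RefSeq table, from 250 bases before to 50 bases after the start site (GRCh38.p14), and both strands were searched. The letters GCGCATG, the core of NRF1 sites, stood in 8 of the 36 (22.2%), against 5.87% of the stretches of 15842 protein-coding genes. CCGGAAG, an ETS core, stood in 14 (38.9%), against 14.2%. ACGTG or GCGTG, cores of HIF sites, stood in 19 (52.8%), against 55.9%. The members with and without the NRF1 motif had medians of −0.32 and −0.38 in total RNA and −0.45 and −0.37 in ER-RNA, over 8 and 28 genes. With and without the ETS core these were −0.43 and −0.30 in total RNA and −0.35 and −0.47 in ER-RNA, over 14 and 22 genes. For the HIF cores they were −0.36 and −0.40 in total RNA and −0.37 and −0.36 in ER-RNA, over 19 and 17 genes.

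The NRF1 motif is shown for ATP5F1C and SDHD, the members called down in which it was found, and for a subunit gene of complex IV and cytochrome c. ATP5MC1 and COX7B, also called down, were searched and lack it, so it stood in 2 of 4 promoters of genes called down. ATP5F1B and CYC1, called down too, were not among the promoters searched. The stretches are chr10:7788145-7788174 (plus strand), chr11:112086753-112086782 (plus strand), chr2:97645915-97645944 (plus strand) and chr7:25125411-25125440 (minus strand) in GRCh38.p14. Capitals mark the motif, which in ATP5F1C and SDHD lies on both strands with shared bases.
ATP5F1C: gggagcttcgGCGCATGCGCgctgaggcct
SDHD: agctgtgtttGCGCATGCGCgacgggtgtg
COX5B: ggcagagctgggCATGCGCaatttccgccc
CYCS: catgctcgccagCATGCGCgcgcaggtcct
Of these 4 genes, ATP5F1C and SDHD were called down in ER-RNA alone, SDHD through 1 of its 2 probe sets, and COX5B and CYCS were not called.

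The regulators of such genes were themselves measured. Of 14 listed, 1 was called up and 1 down in each fraction. Over all genes 2.32% and 1.12% were called up and 7.45% and 8.25% called down, in total RNA and ER-RNA. MXI1, a repressor of MYC activity that HIF induces, rose by 1.07 in total RNA and 1.25 in ER-RNA on the log2 scale. PPRC1, a coactivator of the PGC-1 family, had 8.54 in hypoxia and 9.35 under control conditions in total RNA and fell by 0.81, with a change of −0.37 in ER-RNA that was not called. TFB2M, a mitochondrial transcription factor, fell by 1.03 in ER-RNA, with −0.37 in total RNA. NRF1 itself changed by 0.10 and 0.16 and TFAM by −0.22 and −0.73, without a call. PPARGC1A had the lowest change of the list in total RNA, −0.96, also without a call.

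Complex IV has partners whose levels are tied to oxygen. Of 10 listed, 8 were measured. HIGD1A is known to be hypoxia-induced in other cells and to bind complex IV. The probe set named for it was called down here, by 0.79 in total RNA and by 1.20 in ER-RNA on the log2 scale. Its values were 8.10 in hypoxia and 8.90 under control conditions in total RNA, and 9.09 and 10.29 in ER-RNA. Whether that probe set reads HIGD1A itself was not tested, and no fall of the gene is drawn from it. RBPJ, a DNA-binding protein that acts on a hypoxia element of the COX4I2 promoter, rose by 1.04 in total RNA, with 0.62 in ER-RNA and no call there. LONP1, the protease that degrades COX4I1 protein, changed by 0.17 in total RNA and −0.03 in ER-RNA. CHCHD2, another factor of the COX4I2 promoter, had −0.65 and −0.34 without a call.

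Assembly factors of complexes II to V lay lower too. Of 47 listed, 38 were measured, with medians of −0.47 for total RNA and −0.64 for ER-RNA. Of the 33 that passed the filter in total RNA 5 were called down, and of the 37 in ER-RNA 10, with none called up. Over all genes 7.45% and 8.25% were called down. BCS1L, UQCC2 and TTC19, which serve complex III, fell in both fractions, as did COA7, which serves complex IV, and FASTKD2, a mitochondrial RNA-binding protein whose loss is known to lower complex IV activity. TTC19 was lowest, with 8.86 in hypoxia and 10.19 under control conditions in total RNA and 7.86 and 9.76 in ER-RNA, log2 fold changes of −1.33 and −1.89. COX11, COX14, SCO1, CMC2 and HCCS were called down in ER-RNA alone, and HCCS, which joins heme to cytochromes c and c1, fell there by 1.02 on the log2 scale. The highest changes were those of COX20 in total RNA (0.51) and UQCC3 in ER-RNA (0.54), neither called.

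Complex I subunits and mitochondrial ribosomal proteins are the groups most like the members. The 33 complex I genes had medians of −0.50 for total RNA and −0.66 for ER-RNA, with 8 called down in each fraction among 31 and 33 that passed. The 73 mitochondrial ribosomal proteins had medians of −0.46 and −0.62, with 13 of 68 and 19 of 73 called down. The shares called down over all genes were 7.45% and 8.25%. For the 40 ubiquitous genes of complexes II to V and cytochrome c the medians were −0.41 and −0.49. With 1 array per condition the difference between these groups has no test.

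**Figure D4:**
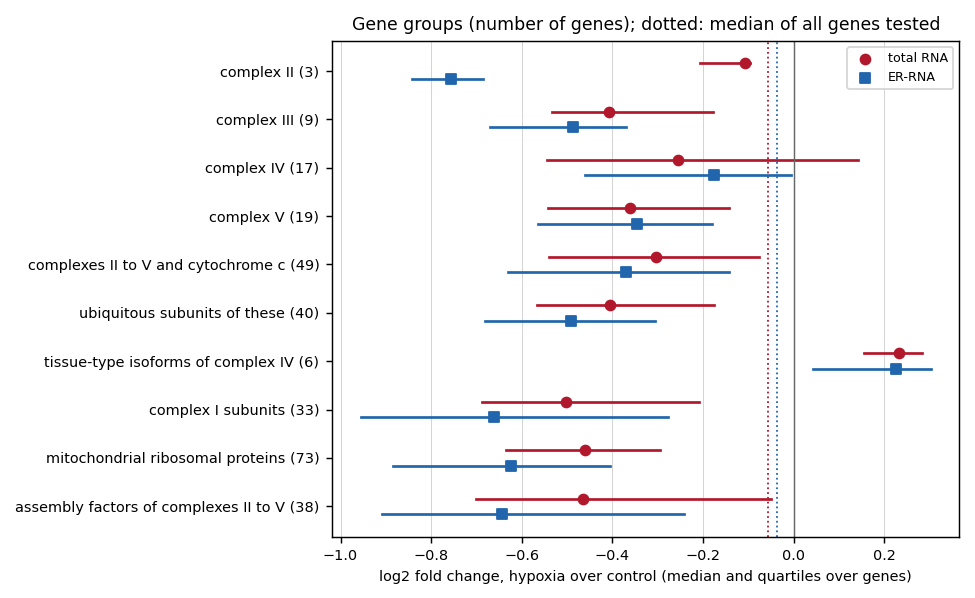
Median (symbols) and quartiles (lines) over genes of log2 fold changes (x axis, hypoxia over control) for each complex, all members, the ubiquitous and tissue-type members and 3 related groups, for total RNA (circles) and for ER-RNA (squares). All medians but those of the tissue-type isoforms lie left of the dotted lines, the medians of all genes at −0.06 and −0.04.

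ER-RNA was also set against total RNA within each condition, after centring on the median of the 10851 genes that passed in both fractions. Of the 39 members among them, 38 lay above that median in hypoxia and 38 under control conditions, with medians of 1.53 and 1.47 on the log2 scale. With the probe sets used, SDHA was the exception, at −0.85 in hypoxia and −0.41 under control conditions. The other probe set of SDHC had 6.65 in hypoxia and 7.21 under control conditions in ER-RNA. In total RNA it had 8.68 and 8.84, so read from that probe set SDHC would lie below the median too. Complex IV had 1.78 and 1.75, complex V 1.49 and 1.46, and complex III 1.09 and 1.16, in hypoxia and under control conditions. COX7B had the highest value in hypoxia, 2.88, but its total RNA value there, 5.99, lay below the array median of 7.49. ATP5MK had the highest under control conditions, 2.50. Its 2 probe sets are numbered among those of different chromosomes, and whether the one used reads ATP5MK itself was not tested. Related groups lay above the median as well, with 1.32 and 1.42 for complex I, 1.07 and 1.18 for mitochondrial ribosomal proteins and 0.48 and 0.74 for the assembly factors.

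The 4 mesenchymal markers that passed in both fractions had values on either side of 0. The secreted proteins FN1 and COL6A1 had −0.70 and −0.75 in hypoxia and −0.997 and −0.66 under control conditions. CD44, a membrane protein, had 0.38 in hypoxia and −0.09 under control conditions, and VIM, a protein of the cytoskeleton, had 0.97 and 0.99. No statement about binding to the ER is drawn from these values.

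**Figure D5:**
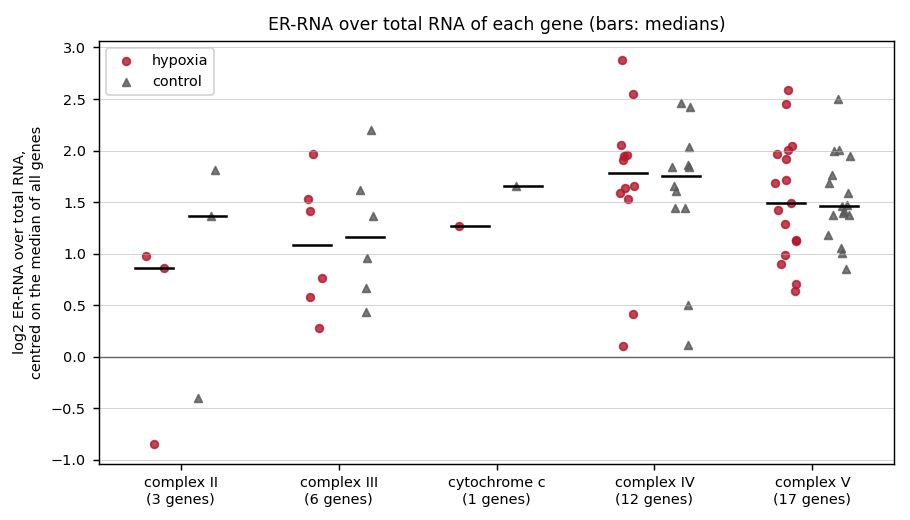
Log2 ER-RNA over total RNA (y axis, centred on the median of all genes that passed in both fractions) of the 39 members in hypoxia (circles) and under control conditions (triangles), by complex, with bars at the medians. Nearly all genes lie above 0 in both conditions, and SDHA of complex II lies below 0 in both.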

How the data were processed

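The authors deposited log2 values that RMA had normalised, and Partek 6.4 is also named in the submitters' processing notes. Whether RMA took all 4 arrays together is not stated in the sources used here. Probe sets were named from the platform annotation, updated by gene identifier to RefSeq, and 6 probe sets that name several genes with a matching symbol among them were left out. Changes were called in R 4.3.3 with limma 3.58.1 and matrixStats 1.5.0, and tables were made with pandas 2.3.3. At least 1 array of a pair had to lie above its 50% quantile, and the fold had to be over 1.4 and the z-score over 3. The SD came from a loess curve (span 0.75, degree 2) of the SD over each pair on its mean, a reading of the methods that may depart from them. Simulated data with known changes were used to test the rule for calls. With 1 array per condition there was no test.

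The text gives array values for COX4I1 and COX4I2, for each called member and for the highest and lowest change of each complex, and names genes of the other lists that were called or were highest or lowest. ATP5MC2, ATP5MC3, ATP5IF1, COX6A1 and COX6A2, and NRF1, TFAM, LONP1 and CHCHD2, were named outside this rule after their values were seen, as were the members given by their log2 fold changes alone. The members and lists were chosen with earlier results of these data known. Complex I and mitochondrial ribosomal protein groups hold protein-coding genes only. Alternatives covered normalisation, filter, SD model, fold threshold and the probe set used for a gene.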

Additional observations from a re-analysis of the deposited data

How the results depend on the processing

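No paired analysis was possible because each group has 1 array, and for the same reason no array could be left out. With the SD from the scaled MAD of the log2 ratios, 1 of 40 members was called down in total RNA and 2 of 43 in ER-RNA, against 1.81% and 2.02% of all genes. With the fold alone these were 17 of 40 and 20 of 43, against 18.6% and 21.4% of all genes. Among members that passed the filter, 90% were lower in hypoxia in total RNA. The median of complex II in total RNA was −0.029 with quantile normalisation and −0.035 with loess within the pair, and in ER-RNA it was −0.53 with quantile normalisation. ER-RNA over total RNA under control conditions was 1.16 with quantile normalisation. The median of complex IV ranged between −0.52 and −0.16 in total RNA and between −0.35 and −0.17 in ER-RNA, with the lowest values among genes that passed the filter, and COX4I2 over COX4I1 in total RNA between 0.09 and 0.29. Of the values of the named genes 141 kept their side of the threshold, 14 lost a call and 5 gained one, with no called gene turning direction. COX4I2 over COX4I1 in ER-RNA has no value among genes that pass the filter. The settings that used ubiquitous subunits alone or the dimmest probe set of a gene were chosen after seeing the data. The cause of these shifts was not tested, and the pooled arrays leave the spread between experiments unknown.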
